A study of Mus musculus with 6 samples.

Results

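The genes described here are targets and regulators of p53 together with the BCL2 family and the caspase machinery that both act on. The set was a list of 33 symbols, and all 33 were found among the 24972 rows of the table of gene values. RNA sequencing had been applied to bone marrow-derived macrophages, which are macrophages cultured from mouse marrow with L929 cell supernatant as the supply of colony-stimulating factor. The groups were wild-type (WT) mice and mice with a knockout of *Lcn10* (Lcn10-KO), which codes for a secreted lipocalin, with 3 libraries each, and the cells of both groups were untreated. The labels give neither the age of the mice nor the construction of the knockout, nor whether the replicates are different mice, so p-values reflect library-to-library spread that may be technical only.

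The transcription factor p53, the product of *Trp53*, is stabilised by DNA damage and other stress and switches on genes that hold the cell cycle, repair DNA, adjust metabolism or lead to apoptosis. Its own level is held down by the ubiquitin ligase MDM2, itself a p53 target, with the help of MDM4. Apoptosis through mitochondria is decided by the BCL2 family. Guardians such as MCL1 and BCL-XL hold the effectors BAX and BAK in check, and BH3-only proteins such as BIM, PUMA and BID release or activate the effectors, after which cytochrome c, APAF1 and caspase-9 start the caspase cascade. The A1 proteins of the *Bcl2a1* genes are guardians too.

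DNA letters that match a half-site, a part of the site that p53 binds, lie close to an annotated start of several of these genes. They are shown for some of the p53 targets, called or not. RefSeq promoter sequences came from GRCm38.p6, the assembly of the mm10 build named for these data. They had 300 bases, from 250 before to 50 after an annotated start, and those of 29 of the members were searched. No such sequences were found for *Trp53inp1*, *Zmat3* and *Bik*. The p53 target *Pmaip1* was left out of the search of the members but not out of the counts over all genes. Its motifs were thus not examined, and the members' shares below leave it out. The consensus half-site of p53, searched on both strands, was present in 9 of these 29 genes (31%), against 9.55% of all 27025 genes. Some genes have several starts, and of the members' 43 windows 10 held it (23.3%), against 8.36% of all 32851 windows. *Cdkn1a*, which fell in Lcn10-KO, held separate matches, written in capitals in the 247 bases that precede its most upstream annotated start, read from 5′ to 3′. The 10 bases directly after the match nearer the start depart from the consensus only in their first base, and are left in lower case.
*Cdkn1a*, chr17:29090729-29090975, plus strand: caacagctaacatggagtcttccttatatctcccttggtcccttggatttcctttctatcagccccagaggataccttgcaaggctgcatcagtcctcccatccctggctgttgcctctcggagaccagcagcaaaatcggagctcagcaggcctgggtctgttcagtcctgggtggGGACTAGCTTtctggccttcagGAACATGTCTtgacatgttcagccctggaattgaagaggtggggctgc
The matches in *Bax*, *Bmf*, *Ccng1* and *Trp53* are not printed, and these genes did not pass the test. Further matches are given with 10 bases on each side, again in capitals, for *Mdm2*, *Sesn1*, *Aen* and *Gadd45a*, of which *Gadd45a* rose and the others did not pass the test.
*Mdm2*, chr10:117710925-117710954, minus strand: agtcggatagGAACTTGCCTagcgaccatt
*Sesn1*, chr10:41887256-41887285, plus strand: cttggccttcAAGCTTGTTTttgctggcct
*Aen*, chr7:78895927-78895956, plus strand: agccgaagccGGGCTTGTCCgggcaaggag
*Gadd45a*, chr6:67037428-67037457, minus strand: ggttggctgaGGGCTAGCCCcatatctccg
The match began 186 bases before an annotated RefSeq start in *Mdm2*, 173 in *Sesn1*, 121 in *Aen* and 40 in *Gadd45a*. In *Sesn1*, *Aen* and *Gadd45a* it falls inside the gene as GENCODE draws it, and in *Aen* it also lies 10 bases after another RefSeq start. A letter match is a description of the sequence and no record of binding. The same windows were searched for TGTTTAC, the core letters of FOXO sites, which stood in *Bbc3*, *Bcl2l11*, *Mdm2* and *Sesn1* (4 of 29 genes, 13.8%, against 4.05% of all genes, and 4 of 43 windows, 9.3%, against 3.65%), and for GGGNNNTTCC, a form of the NF-kB site, which stood in *Bbc3*, *Bcl2l1*, *Mcl1* and *Trp53* (4 of 29 genes, 13.8%, against 6.31%, and 4 of 43 windows, 9.3%, against 5.56%). The windows of *Gadd45b*, *Bid* and the 3 *Bcl2a1* copies held none of the 3 motifs.

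The *Bcl2a1* genes are near-identical copies on chromosome 9, and their promoters are printed because the copies were listed at very different values. Capitals mark bases that are not the same in all 3 copies, over a stretch before the start of each gene.
*Bcl2a1b*, chr9:89199023-89199164, plus strand: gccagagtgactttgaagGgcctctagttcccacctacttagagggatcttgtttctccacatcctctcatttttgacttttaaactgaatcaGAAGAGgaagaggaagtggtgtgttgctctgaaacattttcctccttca
*Bcl2a1d*, chr9:88731915-88732050, minus strand: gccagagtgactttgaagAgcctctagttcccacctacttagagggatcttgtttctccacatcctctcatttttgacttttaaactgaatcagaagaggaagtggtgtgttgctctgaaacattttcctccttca
*Bcl2a1a*, chr9:88956714-88956855, plus strand: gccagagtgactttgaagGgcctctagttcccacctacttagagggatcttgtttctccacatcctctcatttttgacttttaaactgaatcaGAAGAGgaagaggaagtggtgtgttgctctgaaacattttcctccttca
Over this stretch *Bcl2a1d* differs from the others in 1 base and lacks 6 bases. *Bcl2a1a* and *Bcl2a1b* differ in 1 of 186 bases before their starts. The transcripts are alike too. Of the stretches of 31 bases in the *Bcl2a1b* transcript, 88.8% also occur in a transcript of another gene, with 72.4% in *Bcl2a1d*, 56.7% in *Bcl2a1a* and 47.3% in *Gm29094*, which overlaps it on the same strand and is not analysed here, so how reads were split between the copies is uncertain.

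The 6 libraries were similar in depth, at about 18000000 to 24900000 reads as judged from the value of a single read. *Lcn10* was listed at 0 in all 6 libraries and so cannot check the genotype labels. All 10 macrophage markers looked at were expressed, and their summed level was 357400 to 370900 normalized counts in WT and 391600 to 399700 in Lcn10-KO. They did not move one way, since limma called *Adgre1*, *Mertk* and *Lgals3* higher and *Csf1r* and *Cd14* lower. The sums of the neutrophil, fibroblast, and mast cell and basophil markers overlapped between the genotypes. Markers of T and NK cells, erythroid cells and dendritic cells summed to at most 5.20, 6.76 and 16.6 in any library. The 7 endothelial markers, none of them at 0, summed to 1401 to 1578 in WT and to 1508, 2064 and 1789 in Lcn10-KO replicates 1 to 3, and 2 of the 6 tested, *Vwf* and *Stab2*, were higher in Lcn10-KO by limma. The 5 B cell markers summed to 17.9 to 32.7 in WT and 33.6 to 40.1 in Lcn10-KO, nearly all of it *Cd79b*, with the other 4 below 10 in every library. The part of other cell types in the results was not tested, and a change in RNA per cell cannot be told apart from a change in the share of cells that express a gene. WT replicate 1 stood apart for these genes. Among the WT libraries it lay farthest from the Lcn10-KO mean in 24 of 32 members (75%), against 55.6% of all tested genes.

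Lcn10-KO macrophages had less *Cdkn1a* and more *Gadd45a*, *Gadd45b*, *Trp53inp1*, *Mcl1*, *Bcl2a1b* and *Bid* than WT. Of these 7, only *Gadd45a* was called whichever library was left out, and none was called in limma without the mean-variance trend. Of the 33 members, 32 reached a value of 10 in 3 libraries and were tested, and 7 of these differed at a limma adjusted p under 0.05, which is 21.9%, against 9.84% of all 12091 tested genes. The 6 higher members compare with 4.7% of all genes called higher, and the 1 lower member with 5.14% called lower. The values of the genotypes did not overlap in 16 of 32 members (50%), against 32.4% of all tested genes, and an unadjusted p under 0.05 was reached by 16 members, against 26.3% of all. The members were chosen with earlier results of these data known, so these shares describe the list and test nothing. The changes were small. The median log2 fold change of the 32 members was 0.04, against −0.001 over all tested genes, and the median size without sign was 0.12 against 0.10.

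**Figure D1:**
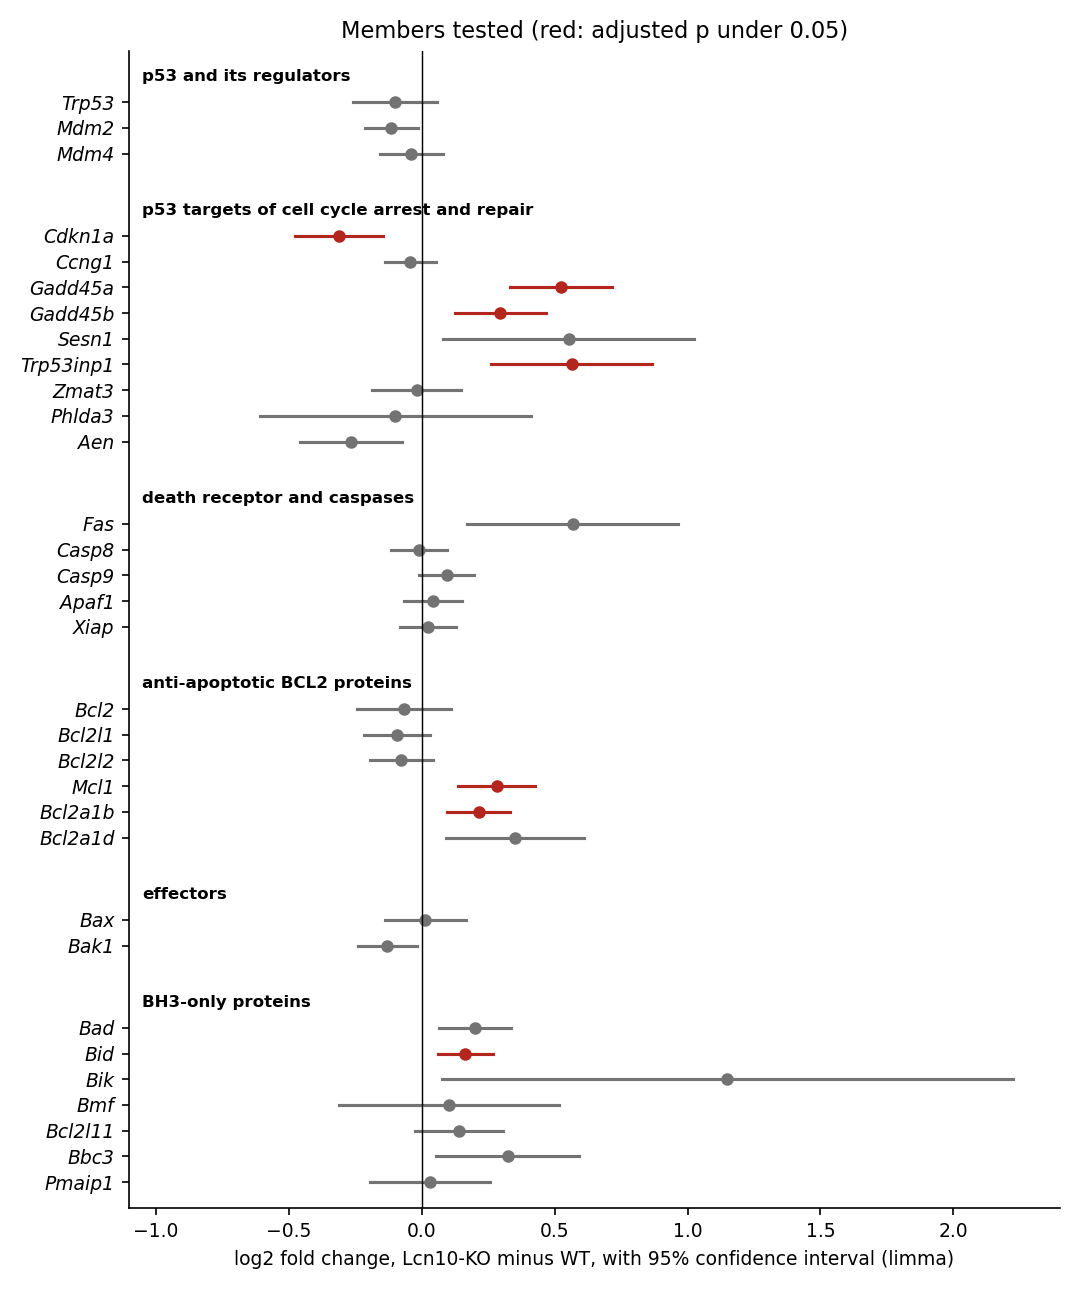
Log2 fold change (Lcn10-KO minus WT, on log2(value + 1)) of the 32 tested members with its 95% confidence interval from limma, ordered by role, in red where the adjusted p was under 0.05. The red points are *Cdkn1a* at −0.31 and 6 genes between 0.16 (*Bid*) and 0.56 (*Trp53inp1*).

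*Trp53* itself and its controllers did not pass the test. *Trp53* had 1547, 1371 and 1286 normalized counts in WT replicates 1 to 3 and 1409, 1261 and 1249 in Lcn10-KO replicates 1 to 3. The groups overlapped, and the log2 fold change was −0.10 with a 95% interval of −0.26 to 0.06. *Mdm2*, the main brake on p53, lay at 2934, 2681 and 2725 in WT and 2564, 2516 and 2622 in Lcn10-KO. All Lcn10-KO values of *Mdm2* lay below all WT values, but the difference was small (log2 fold change −0.11 ± 0.05 (SE), limma adjusted p = 0.139). *Mdm4*, which blocks the activating part of p53, had a log2 fold change of −0.04 (interval −0.16 to 0.08). None of the 3 genes was called by limma, against 9.84% of all tested genes, and none in limma without the mean-variance trend. In the main fit 1, *Mdm2*, had an unadjusted p under 0.05, against 26.3% of all. Of the stretches of 31 bases in the transcripts, 18.8% for *Trp53* and 27.6% for *Mdm4* also occur in the pseudogenes *Trp53-ps* and *Mdm4-ps*, so some reads of these genes could be shared.

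Targets of p53 in cell cycle arrest, repair and metabolism moved in opposite directions. Limma called 3 of the 9 tested genes higher and 1 lower (44.4% called, against 9.84% of all tested genes), and 5 missed the threshold. *Cdkn1a* (ENSMUSG00000023067.14, chromosome 17, 29090976 to 29100727, plus strand) codes for p21, the inhibitor of cyclin-dependent kinases through which p53 halts the cycle. It had 3259, 2597 and 3000 normalized counts in WT and 2388, 2449 and 2274 in Lcn10-KO. Every Lcn10-KO library lay below every WT library, and WT replicate 2 came closest. *Cdkn1a* fell by 0.31 ± 0.07 (SE) on the log2 scale (limma adjusted p = 0.0319), from 2952 ± 334 to 2370 ± 88.8 (mean ± SD, n = 3 per genotype).

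*Gadd45a* (ENSMUSG00000036390.8, chromosome 6, 67035096 to 67037457, minus strand), a stress sensor that acts in DNA repair and arrest, moved the other way. Its values were 397, 328 and 324 in WT and 468, 541 and 496 in Lcn10-KO. No values overlapped, with the highest WT value in replicate 1, and the gene rose by 0.52 ± 0.09 on the log2 scale (limma adjusted p = 0.00561), from 349.7 ± 40.7 to 502 ± 36.8. Its relative *Gadd45b* (ENSMUSG00000015312.9, chromosome 10, 80930073 to 80932204, plus strand), a stress gene also induced by NF-kB, had 404, 369 and 384 in WT and 483, 429 and 513 in Lcn10-KO. A narrow gap lay between WT replicate 1 and Lcn10-KO replicate 2. The log2 fold change was 0.30 ± 0.08 (limma adjusted p = 0.0345). *Gadd45a* overlaps *E230016M11Rik* on the opposite strand, which was at 10.3 normalized counts in WT and 10.4 in Lcn10-KO.

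*Trp53inp1* (ENSMUSG00000028211.11, chromosome 4, 11156431 to 11174379, plus strand), a stress protein of the nucleus that also takes part in autophagy, had 321, 444 and 437 in WT and 521, 619 and 627 in Lcn10-KO. WT replicate 1 was far below the others, yet every Lcn10-KO library lay above every WT library. The log2 fold change was 0.56 ± 0.13 (limma adjusted p = 0.0348). *Sesn1*, a sestrin that restrains mTORC1 and lowers oxidative stress, showed a difference of the same size with a wider error. It had 2548, 4012 and 3616 in WT and 4830, 4828 and 5007 in Lcn10-KO, with a log2 fold change of 0.55 ± 0.18 (limma adjusted p = 0.143). The Lcn10-KO values were close together and the WT values were not. Without WT replicate 1 the log2 fold change of *Sesn1* was 0.36 (limma adjusted p = 4.98e-05), so its call turned on that library, and the size of its difference fell when it was left out.

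**Figure D2:**
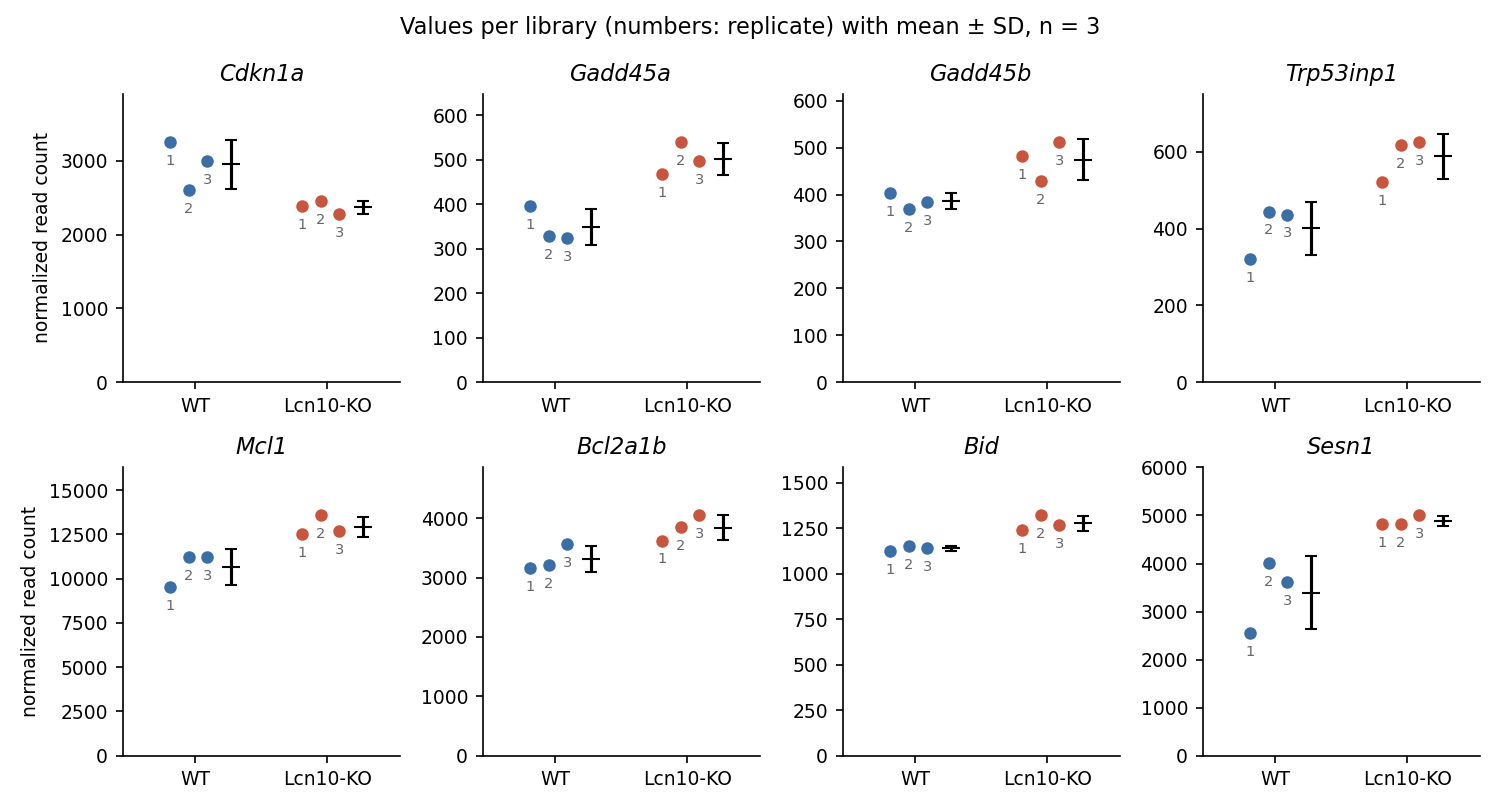
Normalized read counts of the 7 members past the threshold and of *Sesn1* in each library (y axes start at 0, small numbers give the replicate), with the mean ± SD of 3 libraries as a black bar. *Cdkn1a* lies lower in Lcn10-KO and the others lie higher, and WT replicate 1 is the lowest library for *Trp53inp1*, *Mcl1*, *Bcl2a1b*, *Bid* and *Sesn1*.

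The other 4 targets in this role did not pass. *Aen*, a nuclease of apoptotic DNA breakdown, had 747, 585 and 632 in WT and 576, 542 and 508 in Lcn10-KO. Its groups did not overlap, by a small margin at WT replicate 2 (log2 fold change −0.27 ± 0.09, limma adjusted p = 0.0755). *Ccng1*, cyclin G1, and *Zmat3*, an RNA-binding protein, both among the steadiest p53 targets, had log2 fold changes of −0.04 (interval −0.14 to 0.05) and −0.02 (−0.19 to 0.15). *Phlda3*, an inhibitor of AKT, varied widely within each genotype, at 79.5 to 144 in WT and 82.9 to 129 in Lcn10-KO, and its interval ran from −0.61 to 0.41.

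The death receptor and the caspase genes gave no call. Of 5 tested, none passed by limma, against 9.84% of all tested genes, and none passed in limma without the trend. An unadjusted p under 0.05 was reached in the main fit by 1, *Fas*, against 26.3% of all. *Fas*, the receptor through which Fas ligand starts apoptosis and itself a p53 target, had 49.2, 55.2 and 47.4 normalized counts in WT and 77.4, 61.1 and 90.5 in Lcn10-KO. Its groups did not overlap, but the Lcn10-KO libraries were spread out (log2 fold change 0.57 ± 0.18, limma adjusted p = 0.0680). *Casp8*, the initiator caspase below *Fas*, had a log2 fold change of −0.01 (interval −0.12 to 0.09). *Apaf1*, the scaffold of the apoptosome, and *Xiap*, an inhibitor of caspases, were at 0.04 (−0.07 to 0.15) and 0.02 (−0.08 to 0.13). *Casp9*, the caspase activated on that scaffold, was at 0.09 (−0.01 to 0.20), so the intervals of these 4 genes leave room only for small changes.

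Among the guardians of the BCL2 family, *Mcl1* and *Bcl2a1b* rose and the others did not pass. Limma called 2 of the 6 tested genes higher and none lower, and 4 missed the threshold (33.3% called, against 9.84% of all tested genes). An unadjusted p under 0.05 was reached by 3, against 26.3% of all. *Mcl1* (ENSMUSG00000038612.16, chromosome 3, 95658788 to 95663176, plus strand) had 9509, 11230 and 11228 in WT and 12513, 13585 and 12673 in Lcn10-KO. WT replicate 1 was the lowest library, and every Lcn10-KO value exceeded every WT value. The gene rose by 0.28 ± 0.06 on the log2 scale (limma adjusted p = 0.0259), from 10656 ± 993 to 12924 ± 579. *Bcl2a1b* (ENSMUSG00000089929.1, chromosome 9, 89199209 to 89207827, plus strand), which codes for an A1 protein, had 3167, 3209 and 3566 in WT and 3624, 3854 and 4052 in Lcn10-KO. WT replicate 3 lay just under Lcn10-KO replicate 1, and the log2 fold change was 0.21 ± 0.06 (limma adjusted p = 0.0317).

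The other A1 copies were listed far lower. *Bcl2a1d* had 117, 131 and 150 in WT and 168, 179 and 160 in Lcn10-KO, without overlap, and a log2 fold change of 0.35 ± 0.12 that did not pass (limma adjusted p = 0.0812). *Bcl2a1a* lay between 2.28 and 14.9 in the 6 libraries with overlapping groups, did not reach the minimum for testing and is the member left out of the counts. The sum of the 3 copies, which does not depend on how reads were split among these 3 but leaves out *Gm29094* and *Bcl2a1c*, was 3287, 3351 and 3719 in WT and 3807, 4036 and 4217 in Lcn10-KO, or 1.16 times the WT mean. The sum did not overlap between the genotypes. It was nearly all *Bcl2a1b* (WT mean 3314 of 3452), so its moving as that copy did is no separate check.

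*Bcl2l1*, which codes for BCL-XL, *Bcl2*, the founding member of the family, and *Bcl2l2*, which codes for BCL-W, had log2 fold changes of −0.09 (interval −0.22 to 0.03), −0.07 (−0.24 to 0.11) and −0.08 (−0.19 to 0.04). All 3 values were below 0 and none passed, whereas the 3 tested guardians with values above 0 were *Mcl1* and the A1 copies. Of the 31-base stretches of *Bcl2l2*, 13.3% also occur in *Gm20521*, which overlaps it on the same strand.

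The effectors that open the outer mitochondrial membrane did not pass. *Bax* had 2286, 1859 and 2061 in WT and 2180, 2020 and 2049 in Lcn10-KO, with a log2 fold change of 0.01 (interval −0.14 to 0.17). *Bak1* had 1990, 1752 and 1841 in WT and 1687, 1695 and 1714 in Lcn10-KO, without overlap (log2 fold change −0.13 ± 0.05, limma adjusted p = 0.132). Neither effector was called by limma, against 9.84% of all tested genes, nor in limma without the trend. In the main fit 1, *Bak1*, had an unadjusted p under 0.05, against 26.3% of all. For *Bax*, 15.3% of the 31-base stretches also occur in *Gm45808*.

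Of the BH3-only genes, only *Bid* passed (1 of 7, 14.3%, against 9.84% of all tested genes). The log2 fold change was above 0 in all 7, against 6014 of all 12091 genes, and 4 had an unadjusted p under 0.05, against 26.3% of all. These counts include *Bik*, which met the minimum for testing chiefly through the Lcn10-KO libraries, where it is high. *Bid* (ENSMUSG00000004446.12, chromosome 6, 120891930 to 120916853, minus strand), which caspase-8 cleaves to carry the death receptor signal to mitochondria, had 1126, 1151 and 1141 in WT and 1240, 1323 and 1270 in Lcn10-KO. Its change was small but the libraries of each genotype were close together (log2 fold change 0.16 ± 0.05, limma adjusted p = 0.0485). It overlaps *Bcl2l13* on the opposite strand, which had 1082 normalized counts in WT and 1011 in Lcn10-KO. *Bad*, which binds BCL-XL when it is not phosphorylated, had 431, 427 and 450.0 in WT and 501, 511 and 493 in Lcn10-KO. Both groups of *Bad* were well apart, with a log2 fold change of 0.20 ± 0.06 that just missed the threshold (limma adjusted p = 0.0582).

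*Bbc3*, which codes for the p53-induced killer PUMA, had 118, 138 and 149 in WT and 155, 167 and 186 in Lcn10-KO. There was no overlap, but the test was not passed (log2 fold change 0.32 ± 0.12, limma adjusted p = 0.118). *Bcl2l11*, which codes for BIM, the BH3-only protein that ends the life of many myeloid cells, had 1808, 2296 and 1972 in WT and 2221, 2243 and 2198 in Lcn10-KO, so that WT replicate 2 lay above all Lcn10-KO libraries (log2 fold change 0.14, interval −0.03 to 0.31). *Pmaip1*, the p53 target NOXA that neutralises MCL1, and *Bmf*, which is tied to the cytoskeleton, were at 0.03 (−0.19 to 0.26) and 0.10 (−0.31 to 0.52). *Bik* was scarcely detected, at 2.26, 5.72 and 13.2 in WT and 14.9, 12.7 and 14.6 in Lcn10-KO. Its log2 fold change of 1.15 ± 0.50 did not pass (limma adjusted p = 0.162).

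Levels of different genes were compared per kb of annotated exon. *Bcl2a1b* and *Mcl1* led the guardians, at 4056 ± 268 and 3118 ± 291 normalized counts per kb in WT and 4704 ± 263 and 3781 ± 169 in Lcn10-KO (mean ± SD, n = 3). *Bcl2l1* followed at 551 ± 48.8 in WT. *Bcl2l2* was at 205 ± 2.67, *Bcl2a1d* at 154 ± 19.0, *Bcl2* at 56.2 ± 6.40 and *Bcl2a1a* at 6.90 ± 6.08. The places of the *Bcl2a1* copies depend on how reads were split between them, which is uncertain. The order was the same in Lcn10-KO except that *Bcl2a1d*, at 195.8 ± 10.7, stood level with *Bcl2l2* at 194 ± 9.80, 2 genes that did not differ beyond their spread there. *Bcl2* thus stood far below *Mcl1* in these cells.

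Of the effectors, *Bax* was at 1313 ± 136 per kb in WT and *Bak1* at 773 ± 49.9. The BH3-only genes ran in WT from *Bid* at 321 ± 3.58 and *Bcl2l11* at 252 ± 30.9 through *Bad* at 170 ± 4.82, *Pmaip1* at 94.7 ± 9.86, *Bbc3* at 63.6 ± 7.62 and *Bmf* at 49.1 ± 12.4 to *Bik* at 4.43 ± 3.50. The neighbours *Bbc3* and *Bmf* overlapped in WT. Every order within the guardians, the effectors and the BH3-only genes in WT was the same when the longest coding transcript was used as the length.

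**Figure D3:**
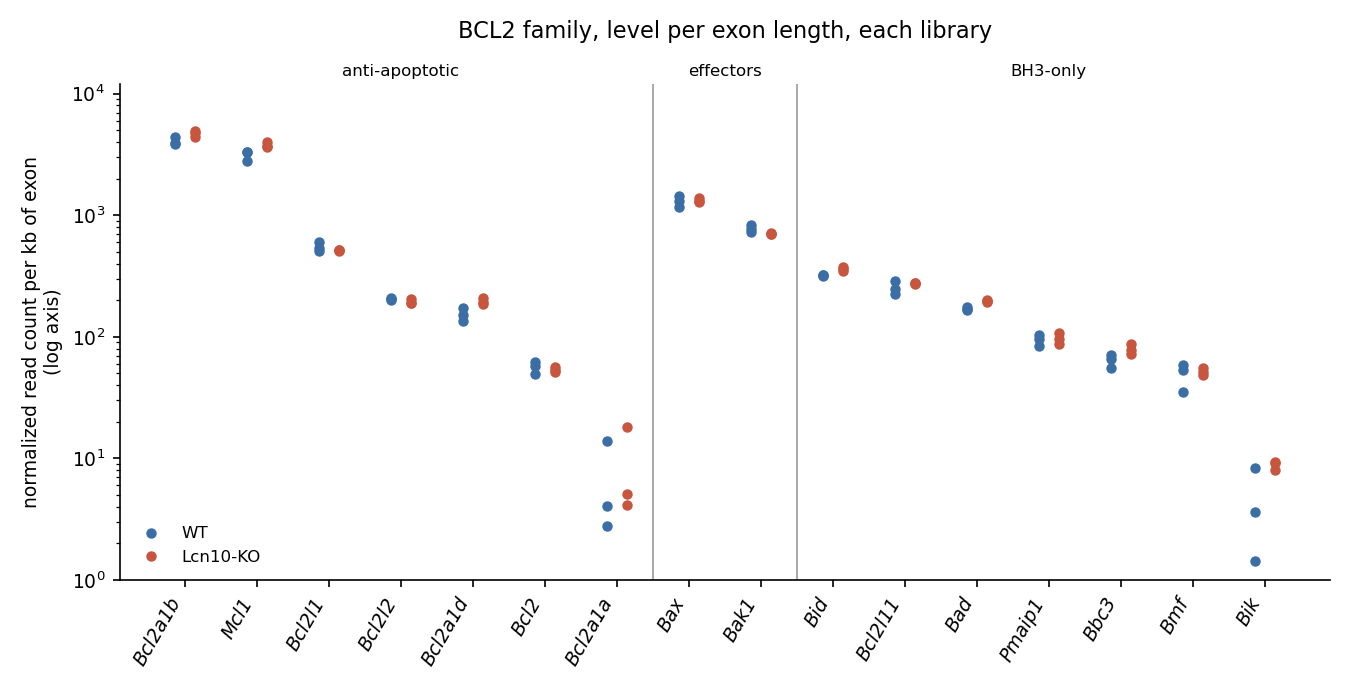
Normalized read count per kb of exon (log axis) of the 16 BCL2 family members in each library, WT in blue and Lcn10-KO in red, ordered within each role by the WT mean. *Bcl2a1b* and *Mcl1* lie above 3000 on average and *Bcl2a1a* and *Bik* below 10, and the genotypes differ far less than the genes do. How reads were split between the *Bcl2a1* copies is uncertain.

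How far each call rested on single libraries differed between the 7 members. *Gadd45a* stayed past the threshold whichever library was left out (limma adjusted p of 4.42e-05 to 0.0478). *Trp53inp1* lost its call without Lcn10-KO replicate 2 or 3 (adjusted p of up to 0.128), *Mcl1* without any 1 of the Lcn10-KO libraries (up to 0.115), and *Bcl2a1b* without WT replicate 2 or Lcn10-KO replicate 2 or 3 (up to 0.141). Among these fits, *Cdkn1a* was called only without WT replicate 1 or 2, with limma adjusted p of up to 0.123 otherwise, *Gadd45b* only without WT replicate 1 or Lcn10-KO replicate 2 (up to 0.148 otherwise), and *Bid* in no such fit (0.0534 to 0.217). Direction was the same in each of these fits for the 7 genes. In limma without the mean-variance trend none of the 7 passed (adjusted p of 0.1 to 0.166), and 14 of all 12091 tested genes were called.

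Some members came in when a library was left out. Without WT replicate 2, *Aen*, *Bak1* and *Bcl2l11* passed by limma while *Gadd45b*, *Bcl2a1b* and *Bid* did not. In that fit 4 members were called higher and 3 lower, and 1652 of all 12091 genes were called (13.7%, 802 higher and 850 lower). Without Lcn10-KO replicate 1, 2 or 3 the members called numbered 3, 2 and 1, and 567, 206 and 173 of all genes were called. Without Lcn10-KO replicate 2 *Gadd45a* and *Gadd45b* were the members called, and without Lcn10-KO replicate 3 *Gadd45a* alone. The endothelial sums of these libraries were 2064 and 1789, against 1508 in Lcn10-KO replicate 1 and 1401 to 1578 in WT. Whether endothelial content played a part was not tested.

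**Figure D4:**
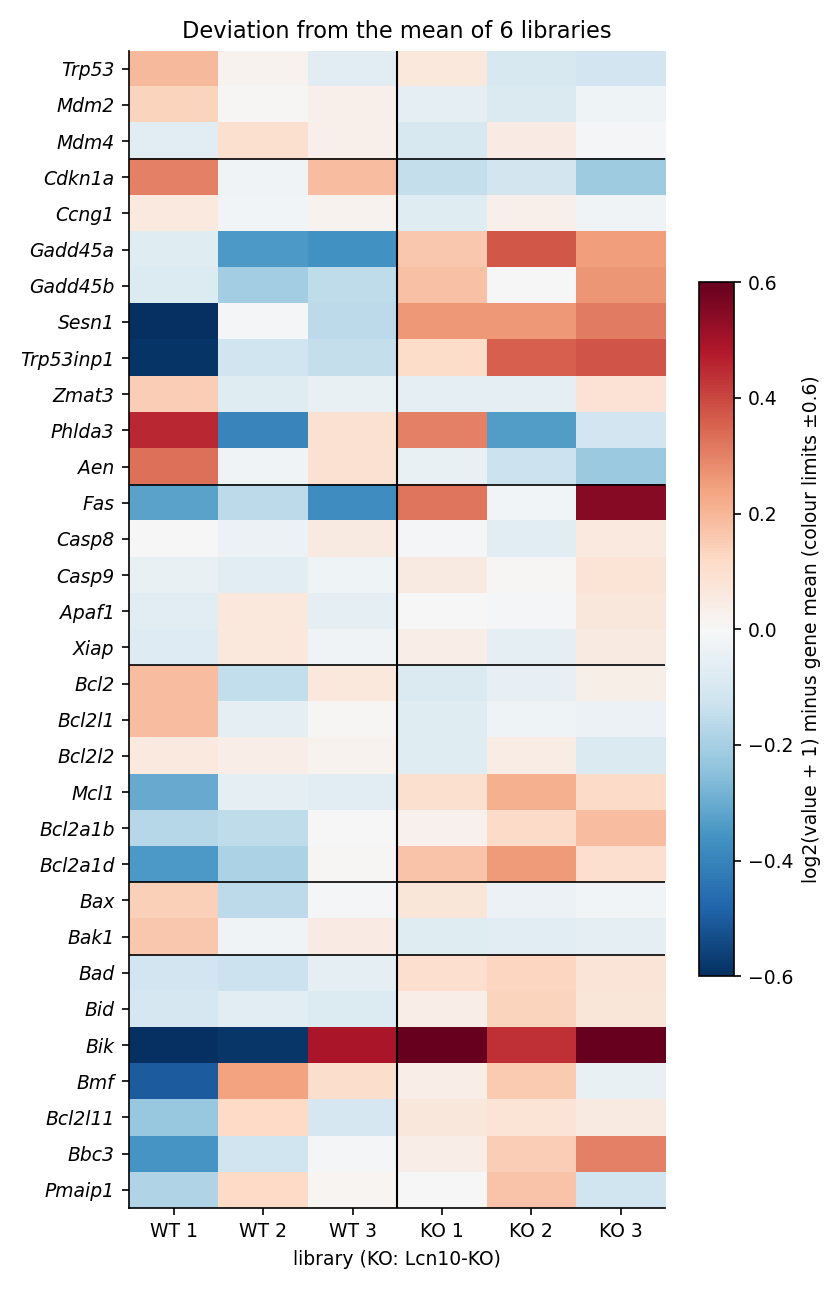
Log2(value + 1) of each tested member minus its mean over the 6 libraries, by library (columns) and gene (rows, ordered by role), with red for higher and blue for lower and colours capped at 0.6 in either direction. WT replicate 1 is the deepest blue column for *Sesn1*, *Trp53inp1*, *Mcl1* and *Bmf*, and *Gadd45a* is red in all 3 Lcn10-KO libraries.

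**Figure D5:**
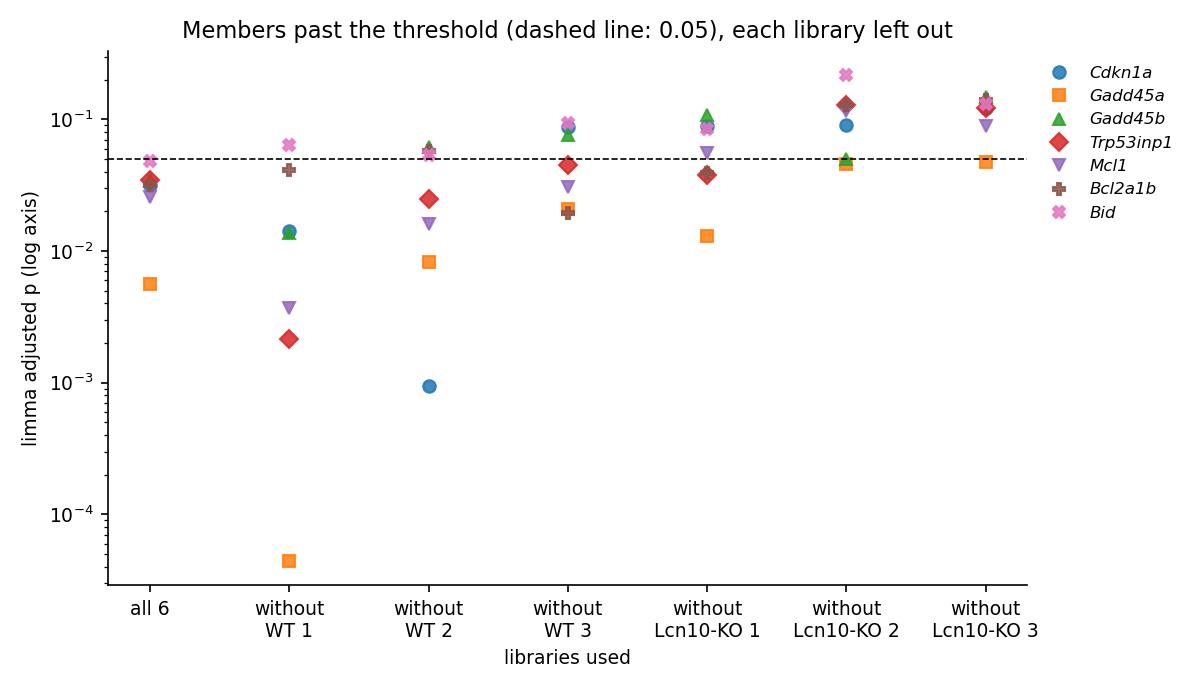
Limma adjusted p (log axis) of the 7 members past the threshold, with all 6 libraries and with each library left out (x axis), and a dashed line at 0.05. *Gadd45a* stays under the line throughout, and most points lie above it without Lcn10-KO replicate 3.

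Other genes of these pathways, taken from lists chosen with earlier results of these data known, were mostly not past the threshold. Of 30 tested further p53 targets, 2 were higher and 1 lower (10%, against 9.84% of all genes), with a median log2 fold change of 0.02. *Plk3*, a kinase of the DNA damage response, fell by 0.48 ± 0.14 (limma adjusted p = 0.0459), from 182 ± 33.5 to 129 ± 13.4 normalized counts. *Dcxr*, a carbonyl reductase, and *Fbxw7*, which marks cyclin E and MCL1 for degradation, rose by 0.41 ± 0.09 and 0.22 ± 0.06.

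Among the genes that signal DNA damage to p53, the kinases *Chek1*, *Atm* and *Prkdc* fell. Of 18 tested regulators of p53 and damage kinases, none was higher and 3 were lower (16.7% called, against 9.84% of all), and the median was −0.07. *Chek1*, the checkpoint kinase of stalled replication, had 477, 449 and 497 in WT and 379.9, 359 and 384 in Lcn10-KO, well apart, and fell by 0.34 ± 0.07 on the log2 scale (limma adjusted p = 0.0122). *Atm*, the kinase that senses double-strand breaks, fell by 0.28 ± 0.06, and *Prkdc*, the kinase of end joining, by 0.29 ± 0.06.

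Of the further caspases, apoptosome parts and inhibitors of apoptosis, 1 of 17 was called (5.88%, against 9.84%). It was *Cycs*, cytochrome c, which fell by 0.26 on the log2 scale, from 3303 ± 301 to 2755 ± 125 normalized counts (limma adjusted p = 0.0287). In the death receptor and necroptosis list 2 of 13 rose (15.4%). *Tnfrsf1b*, the second receptor of tumour necrosis factor, rose from 4227 ± 258 to 5447 ± 263 (log2 fold change 0.37 ± 0.05, limma adjusted p = 0.00212) and was called whichever library was left out. *Mlkl*, the protein that breaches the membrane in necroptosis, rose from 329 ± 21.7 to 424 ± 18.6 (limma adjusted p = 0.0131). *Bnip3l*, a mitophagy receptor with a BH3-like stretch, was the 1 of 6 further BCL2 family genes to pass (16.7%), with 2553 ± 165 in WT against 2905 ± 72.3 in Lcn10-KO (limma adjusted p = 0.0377). Leaving out Lcn10-KO replicate 2 ended the calls of *Plk3*, *Dcxr*, *Fbxw7*, *Chek1*, *Atm*, *Prkdc*, *Cycs*, *Mlkl* and *Bnip3l*, as did leaving out Lcn10-KO replicate 3, with limma adjusted p of up to 0.181. *Plk3* also lost its call without WT replicate 1 or 3 or Lcn10-KO replicate 1, and *Fbxw7* without WT replicate 2 or 3 or Lcn10-KO replicate 1. *Dcxr* lost it without Lcn10-KO replicate 1, *Bnip3l* without WT replicate 1 or Lcn10-KO replicate 1, and *Cycs* without WT replicate 3. In limma without the trend none of the 10 genes called in these lists passed, *Tnfrsf1b* included (adjusted p of 0.089 to 0.165).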

How the data were processed

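The deposited values are a signal, normalized read counts with nearly equal totals per library. The submitters' processing notes name bcl2fastq, STAR 2.6.1a, Salmon 0.11.2, DESeq2 and the mm10 build, without roles. Annotation, filters and strand setting are not given in these sources. In low genes 87.3% to 91.3% of values lay within 0.1 reads of a whole number of reads, too few to recover counts.

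Genes reaching 10 in 3 or more libraries entered limma 3.58.1 in R 4.3.3 on log2(value + 1), fitting genotype alone with trend and robust variance options, two-sided, with Benjamini-Hochberg adjustment over all 12091 genes and a threshold of 0.05. The log2(value + 1) scale understates changes of low genes. The procedure was tested on simulated data. Members and lists were chosen with earlier results of these data known. The text names every member and, from each further pathway list, up to 4 called genes per direction by p, and cell type markers or overlapping genes where a result touches them. Alternatives were another normalization (quantile, median ratio), no trend, other filters and pseudocounts (0.5, 10), a replicate block and each library left out. Deviations of same-numbered replicates were only weakly correlated, and the labels do not say whether the numbers pair libraries. Exon lengths and positions came from GENCODE M21 (GRCm38), promoters from RefSeq, and the copies were aligned with Biopython 1.88. Genes that overlap others or have near copies may share reads.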

Additional observations from a re-analysis of the deposited data

How the results depend on the processing

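In limma without the mean-variance trend 14 of all tested genes were called, and 0 members higher and 0 lower. Leaving out each library in turn gave 173 to 1652 called genes, 1 to 6 members higher, 0 to 3 members lower and a median log2 fold change of the members of 0.035 to 0.085. With the replicate number as a block 1607 genes were called and 2 members were lower, *Aen* being the addition. The labels do not say whether the numbers pair the libraries, and the correlations do not settle it. The correlation of deviations from the group means was 0.038, 0.073 and 0.014 for replicates 1, 2 and 3. It ran from −0.063 to 0.026 for unlike numbers, and in 2 of 3 WT libraries the same number gave the highest. Of 251 values of the 42 named genes under the 6 other processing settings, 249 kept their direction and side of the threshold and 2 lost the call, those of *Bid* and *Fbxw7* with no filter on low values. No called value reversed. The cause of these changes was not tested.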
